A study of Homo sapiens with 14 samples.

Results

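The histone genes were followed by RNA-seq in the human leukaemia cell line MOLM14, derived from acute myeloid leukaemia, as the FLT3 inhibitor gilteritinib was given to parental cells or to lines that had become resistant to it early. A gene was included when its current symbol began with H1-, H2AC, H2BC, H3C, H4C, H2AZ, H2AX, H2AJ, H3-3 or MACROH2A, which gave 74 of the 39293 gene identifiers. They were divided into 38 clustered replication-dependent genes, 11 variant genes and 25 pseudogenes. Of the clustered genes, 23 lie on chromosome 6, 13 on chromosome 1 and 1 each on chromosomes 12 and 21, whereas the 11 variant genes are spread over 9 chromosomes.

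The FGF2 early arm held 4 libraries of an early resistant line grown with 10 ng/mL FGF2, a fibroblast growth factor, and exposed to 100 nM gilteritinib for 48 hours. The FL early arm held 4 libraries of a line grown with 10 ng/mL FLT3 ligand (FL) and exposed in the same way. The acute arm held 3 libraries of parental cells after 48 hours of 100 nM gilteritinib, 1 with FGF2 at 10 ng/mL, 1 with FL at 10 ng/mL and 1 with no ligand, so its spread includes any difference between ligands. The parental arm held 3 libraries of untreated cells. "Early" below is the mean of both early arms in the fit. All arms come from 1 cell line, and the labels number flasks for the early arms without saying whether the flasks were derived separately. Nor do they tie each parental library to a culture of its own, so p-values measure the spread among the libraries, which may be technical.

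Replication-dependent histone genes supply the core histones H2A, H2B, H3 and H4 and the linker histone H1 while DNA is copied. Their mRNAs usually end in a conserved stem-loop that is bound by SLBP in place of a poly(A) tail, and they are degraded when S phase ends. Variant histones such as H3.3, H2A.Z and macroH2A are made throughout the cell cycle or in non-dividing cells from ordinary polyadenylated mRNAs. Polyadenylated forms of some clustered histone genes are known from differentiated and non-dividing cells.

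The libraries were selected on poly(A), so the levels below are those of polyadenylated histone transcripts together with any tail-less transcript carried through the selection. Which of these a read came from was not tested. Library totals ran from 25723555 to 33075122 counts, and pairwise correlations of log expression within an arm ran from 0.958 to 0.981, across genes. The FL early arm had the lowest of these, and its replicates 1 and 4 were left out together as one alternative. Of 13 myeloid leukaemia markers, all passed the filter on low counts, and their summed level was 1157 to 1283 CPM (counts scaled to a common library size) in FGF2 early, 1995 to 2525 in FL early, 2089 to 2409 in acute and 1200 to 1228 in parental libraries. The summed level of 16 markers of other cell types was 63.8 to 70.4 CPM in FGF2 early, 104.1 to 182.9 in FL early, 140.3 to 280.9 in acute and 60.6 to 63.4 in parental libraries. PECAM1, which made up most of that sum, reached 268.6 CPM, KRT8 reached 9.54 CPM, and each other marker was at or below 1.66 CPM in every library. PECAM1 was at 56.2 CPM or more in every library, untreated parental ones included. The sum is therefore not read here as signal of other cell types. HBA1 and HBB were at 0 in every library. Both sums were near the parental range in FGF2 early libraries and nearer the acute range in FL early libraries, whereas the clustered histone sum given below was similar in both early arms. The myeloid sums of FL early and acute cells rest in part on different genes. MPO averaged 491.6 CPM in FL early, 4.92 in acute and 68.0 in parental cells, whereas FLT3 averaged 367.2, 715.5 and 377.0 CPM. Similar sums therefore do not mean similar marker levels. The part of the marker genes in the histone results was not tested.

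Where a stem-loop lies in the annotated transcripts bears on what a poly(A) library can hold, so the sites of 6 genes are shown first. The search joined the stem arm GGCNCT, the loop TTTC and the stem arm AGNGCC without a gap, with N for any base, read on the transcript strand after the coding sequence of GENCODE 29 transcripts with at most 2 mismatches. The 16 bases matched are in capitals, with 5 bases on each side. The first 4 genes are clustered genes that were high in the acute arm, and H2AX and H2AJ are the variants in which a match was found.
H2AC6: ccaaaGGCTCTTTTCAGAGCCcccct
H2BC5: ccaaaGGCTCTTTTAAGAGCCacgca
H2AC11: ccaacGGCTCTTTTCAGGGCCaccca
H4C11: taaaaGGCCCTTTTCAGGGCCaccct
H2AX: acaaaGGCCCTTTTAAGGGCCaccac
H2AJ: gcaaaGGCCCTTTTCATGGTCgtccc
A match was found in 16 of the 26 clustered genes that could be tested for expression, 12 of them exact, and in 2 of the 8 variant genes. Over all coding genes with an annotated transcript it was found in 201 of 19684 (1.021%). In 11 of the 16 clustered genes the annotation held a transcript running more than 100 bases past the stem-loop, and in 9 the polyadenylation signal AATAAA followed it. H2AC6 had 1114 bases after the site, H2AC11 had 1761 and H2BC21 had 1729. In H1-2 and H2BC12 the longest annotated transcripts were 642 and 381 bases, for proteins of 213 and 126 amino acids. They hold the coding sequence and stop codon alone, so the search had nothing to read and no match was possible. The same holds for H1-5, H2AC7, H2AC20 and H3C4, so the 16 of 26 mixes genes without a match and genes without sequence to search. Elsewhere, no match says only that these letters are not in the annotated sequence.

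Promoters of 4 genes called in acute against parental cells are shown next to cover both classes and directions, chosen after their values were seen, from RefSeq (GRCh38.p14), each from 250 bases before to 50 bases after the start. Capitals mark, on either strand, CCAAT, the TATA box TATAAA, the octamer ATTTGCAT, AAACACA (the core of the H1 box) and TTTGAA (the cell-cycle homology region), and TATAAA can overlap its own reverse complement. H2AC6 and H2BC12 are clustered genes that were high in the acute arm, H1-10 is a variant that was high there, and H2AZ1 is a variant that was low there.
H2AC6 (chr6:26123922-26124221, plus strand): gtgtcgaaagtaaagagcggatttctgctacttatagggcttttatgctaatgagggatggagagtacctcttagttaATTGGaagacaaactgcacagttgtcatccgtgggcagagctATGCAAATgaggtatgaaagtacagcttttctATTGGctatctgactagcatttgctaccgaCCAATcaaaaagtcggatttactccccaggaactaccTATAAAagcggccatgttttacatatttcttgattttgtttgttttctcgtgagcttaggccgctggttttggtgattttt
H2BC12 (chr6:27146809-27147108, minus strand): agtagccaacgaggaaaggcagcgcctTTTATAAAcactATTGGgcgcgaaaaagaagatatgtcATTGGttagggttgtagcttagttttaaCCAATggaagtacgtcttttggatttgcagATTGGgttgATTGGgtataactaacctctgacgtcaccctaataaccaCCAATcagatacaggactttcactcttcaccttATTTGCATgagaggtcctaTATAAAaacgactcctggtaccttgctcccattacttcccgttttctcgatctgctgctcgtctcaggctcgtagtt
H1-10 (chr3:129316237-129316536, minus strand): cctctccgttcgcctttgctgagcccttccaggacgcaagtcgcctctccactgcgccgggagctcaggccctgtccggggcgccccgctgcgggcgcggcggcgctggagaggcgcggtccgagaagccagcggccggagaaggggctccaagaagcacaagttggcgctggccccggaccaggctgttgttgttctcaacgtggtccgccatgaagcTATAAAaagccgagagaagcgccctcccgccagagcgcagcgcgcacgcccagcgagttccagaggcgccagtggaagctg
H2AZ1 (chr4:99950226-99950525, minus strand): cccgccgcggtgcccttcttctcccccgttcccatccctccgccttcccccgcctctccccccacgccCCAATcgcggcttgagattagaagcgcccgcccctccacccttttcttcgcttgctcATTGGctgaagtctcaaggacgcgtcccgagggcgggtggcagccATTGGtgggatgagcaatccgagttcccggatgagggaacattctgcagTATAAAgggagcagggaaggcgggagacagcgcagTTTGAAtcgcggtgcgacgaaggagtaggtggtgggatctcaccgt
CCAAT was present in 79.2% of 24 clustered and 75.0% of 8 variant promoters that could be looked up, against 35.7% of 27305 promoters in all. TATAAA was present in 58.3% of the clustered and 50% of the variant promoters, against 12% of all. The octamer was present in 41.7% of the clustered and 12.5% of the variant promoters, against 1.80% of all, AAACACA in 16.7% and 0%, against 5.76%, and TTTGAA in 33.3% and 25%, against 15.4%. The windows of neighbouring divergent genes overlap: those of H2AC6 and H2BC4 share 255 of 300 bases, and those of H2AC11 and H2BC11 share 253, so these promoters are not independent.

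Of the 74 genes, 34 passed the filter on low counts and were tested: 26 clustered, 8 variant and 0 pseudogenes. The filter asked for about 0.344 CPM in at least 3 libraries. Of the 26 clustered genes, 14 passed it without the acute libraries, and 12 passed only with them. Passing in this way favours a high acute level, so the acute comparisons of these 12 are not independent of the filter. The other 40 comprised 20 genes at 0 in every library and 20 that never exceeded 16.2 counts in a library. Several genes code for the same protein and have near-identical transcripts, so their reads may be split wrongly among copies. H4C14 and H4C15 had identical values in every library and are 1 measurement, and H4C3, H4C8, H4C11 and H4C16 encode that same H4 protein. H2AC11 and H2AC13, H2AC18 and H2AC19, and H3C4 and H3C12 are further pairs with the same protein sequence, and H3C13, H3C14 and H3C15, which did not pass the filter singly, share another. Adding the counts of such copies before the fit gave 5 summed features, with log2 fold changes of 3.04 to 4.35 in acute against parental cells (adjusted p of 2.44e-08 to 0.000214, edgeR). Each holds copies that passed the filter only with the acute libraries or not at all, so these values describe the sums and are not support.

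The summed level of the clustered genes was 26.5, 25, 39.7 and 26.3 CPM in FGF2 early, 39.0, 20.3, 25.4 and 26 CPM in FL early, 225.1, 209.6 and 218.6 CPM in acute, and 15.7, 13.2 and 16.4 CPM in parental libraries. The acute libraries were the 3 highest by a wide margin, and every early library lay above every parental one. The means were 29.4 ± 6.93 CPM (SD, n = 4) in FGF2 early, 27.7 ± 7.98 (n = 4) in FL early, 217.8 ± 7.79 (n = 3) in acute and 15.1 ± 1.68 (n = 3) in parental cells. Acute cells thus held 14.4 times the parental mean, and early cells held 1.89 times the parental mean and 0.131 times the acute mean. These are sums in bulk cultures, in which more cells with such transcripts and more transcript per cell cannot be told apart, as for every result below.

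The variant genes were far less unequal between arms. Their summed level averaged 1436 ± 27.1 CPM (SD, n = 4) in FGF2 early, 1533 ± 50.9 (n = 4) in FL early, 1464 ± 37.3 (n = 3) in acute and 1776 ± 36.3 (n = 3) in parental cells, so that the acute mean was 0.824 times the parental one. That sum joins opposite movements. The linker variant H1-10 averaged 35.5 ± 3.08 CPM (SD, n = 4) in FGF2 early, 52.5 ± 15.3 (n = 4) in FL early, 155.3 ± 14.4 (n = 3) in acute and 24.7 ± 6.13 (n = 3) in parental cells. The other variant genes averaged 1401 ± 27.3, 1481 ± 57.2, 1309 ± 23.0 and 1751 ± 38.0 CPM in FGF2 early, FL early, acute and parental cells. Clustered genes made up 1.68% to 2.75% of the summed counts of these histone genes in FGF2 early, 1.35% to 2.52% in FL early, 12.7% to 13.5% in acute and 0.722% to 0.923% in parental libraries.

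**Figure D1:**
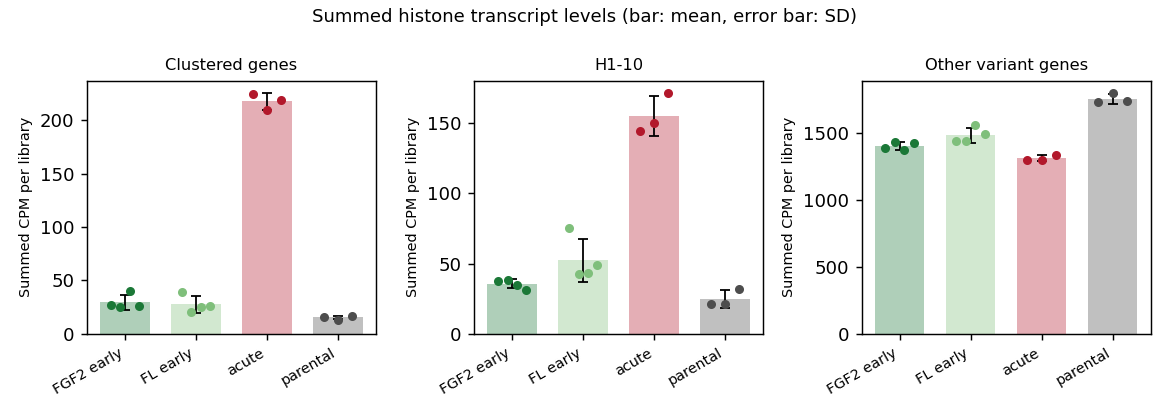
Summed CPM per library (vertical axis, linear) of the clustered genes, of H1-10, and of the other variant genes in FGF2 early, FL early, acute and parental arms, with points for libraries, bars for means and error bars for SD. The acute libraries are at 209.6 to 225.1 CPM for the clustered genes and at 1294 to 1335 CPM for the other variants, against 13.2 to 16.4 and 1725 to 1795 CPM in parental libraries.

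Gilteritinib for 48 hours in parental cells, alone or with FGF2 or FL, was compared with no treatment first, since acute cells are one of the controls of the early lines. Of the 26 clustered genes tested, 24 were higher in acute than in parental cells and 0 were lower by edgeR's quasi-likelihood test with Benjamini-Hochberg adjustment over all genes at 0.05. H4C14 and H4C15, which are 1 measurement, are counted separately in this and the later counts of called genes. No clustered gene was lower at an unadjusted p under 0.05 either, nor by DESeq2 or limma-voom, and the same held for higher in early against acute and lower in early against parental cells. Over all 15756 genes tested, 32.3% were higher and 30.3% lower in this comparison. Of the 14 clustered genes that passed the filter without the acute libraries, 13 were higher, with a median log2 fold change of 3.04 over the 14 and 3.48 over all 26, against 0.07 over all genes tested. The 11 others called were among the 12 that passed only with the acute libraries, so their number is not support. H2AC19 and H2AC20 did not pass: H2AC19 had 1.80 CPM in the acute library without ligand and 0 in both with ligand, and H2AC20 had 0.206 to 0.847 CPM in acute and 0.148 to 0.288 CPM in parental libraries.

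H2BC12, an H2B gene (ENSG00000197903), had 8.05, 8.67, 16.3 and 9.20 CPM in FGF2 early, 15, 7.34, 7.25 and 9.71 CPM in FL early, 69.8, 79.8 and 80.7 CPM in acute, and 4.76, 4.43 and 5.36 CPM in parental libraries. Every acute library stood above every early one, and every early one above every parental one. The gene was 15.8-fold higher in acute than in parental cells (log2 fold change 3.98 ± 0.31 (SE), adjusted p = 7.22e-08, edgeR). H2AC6, an H2A gene whose window is shown above, had 4.56, 3.88, 5.89 and 3.15 CPM in FGF2 early, 6.50, 2.11, 2.33 and 3.52 CPM in FL early, 46.1, 44.4 and 54.7 CPM in acute, and 2.09, 1.59 and 2.12 CPM in parental libraries. It was 25-fold higher in acute than in parental cells (4.64 ± 0.38, adjusted p = 1.22e-07, edgeR), and its FL early and parental libraries overlapped narrowly. Its divergent neighbour H2BC4 had 2.16, 1.92 and 1.5 CPM in acute and 0.546, 0.258 and 0.540 CPM in parental libraries, a 4.12-fold difference (2.04 ± 0.37, adjusted p = 0.000246, edgeR). The groups of H2BC4 did not overlap, but its fold was the lowest among the clustered genes called.

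H1-2, a replication-dependent linker histone, had 3.26, 2.06, 3.86 and 2.73 CPM in FGF2 early, 3.53, 2.02, 2.09 and 2.74 CPM in FL early, 22.4, 30.4 and 27.2 CPM in acute, and 1.83, 1.22 and 1.73 CPM in parental libraries. It was 16.7-fold higher in acute than in parental cells (4.06 ± 0.28, adjusted p = 1.88e-08, edgeR), the smallest adjusted p among the clustered genes. H2BC5, an H2B gene, had 1.51, 1.49, 2.65 and 1.35 CPM in FGF2 early, 1.71, 1.54, 1.53 and 1.20 CPM in FL early, 11.3, 13.8 and 13.2 CPM in acute, and 1.03, 0.886 and 1.08 CPM in parental libraries. H2AC11, an H2A gene, had 2.24, 1.82, 2.0 and 1.44 CPM in FGF2 early, 2.42, 1.64, 1.53 and 1.88 CPM in FL early, 14.4, 10.0 and 10.1 CPM in acute, and 0.771, 0.849 and 1.08 CPM in parental libraries. Both showed 3 separate levels, with acute above early and early above parental in every library. H2BC5 was 12.7-fold and H2AC11 12.8-fold higher in acute than in parental cells (adjusted p = 2.91e-08 and 2.48e-08, edgeR). By CPM, which is not corrected for transcript length, these 5 genes carried 80.9% of the clustered sum in acute and 68.0% in parental cells, and H2BC12 alone carried 35.2% and 32.1%.

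H2AC18, an H2A gene, had 0.814, 0.574, 0.689 and 0.479 CPM in FGF2 early, 1.67, 0.756, 1.20 and 0.547 CPM in FL early, 3.83, 4.60 and 5.46 CPM in acute, and 0.193, 0.406 and 0.396 CPM in parental libraries. It was 13.9-fold higher in acute than in parental cells (3.80 ± 0.43, adjusted p = 2.8e-06, edgeR), again with 3 separate levels. H4C11, an H4 gene, had 1.10, 0.911, 1.69 and 1.56 CPM in FGF2 early, 0.669, 0.882, 1.06 and 0.786 CPM in FL early, 4.23, 2.47 and 3.42 CPM in acute, and 0.675, 0.591 and 0.971 CPM in parental libraries. Here early and parental libraries overlapped, and acute libraries stood 4.51-fold above parental ones (2.17 ± 0.32, adjusted p = 4.18e-05, edgeR). The H2B genes H2BC15, H2BC21 and H2BC11 were at 2.40 to 4.26, 2.23 to 3.18 and 2.04 to 3.18 CPM in acute libraries, against 0.324 to 0.701, 0.185 to 0.450 and 0.144 to 0.443 CPM in parental libraries, with folds of 5.85, 8.07 and 8.46 (adjusted p of 0.000155, 6.49e-06 and 3.68e-05, edgeR).

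**Figure D2:**
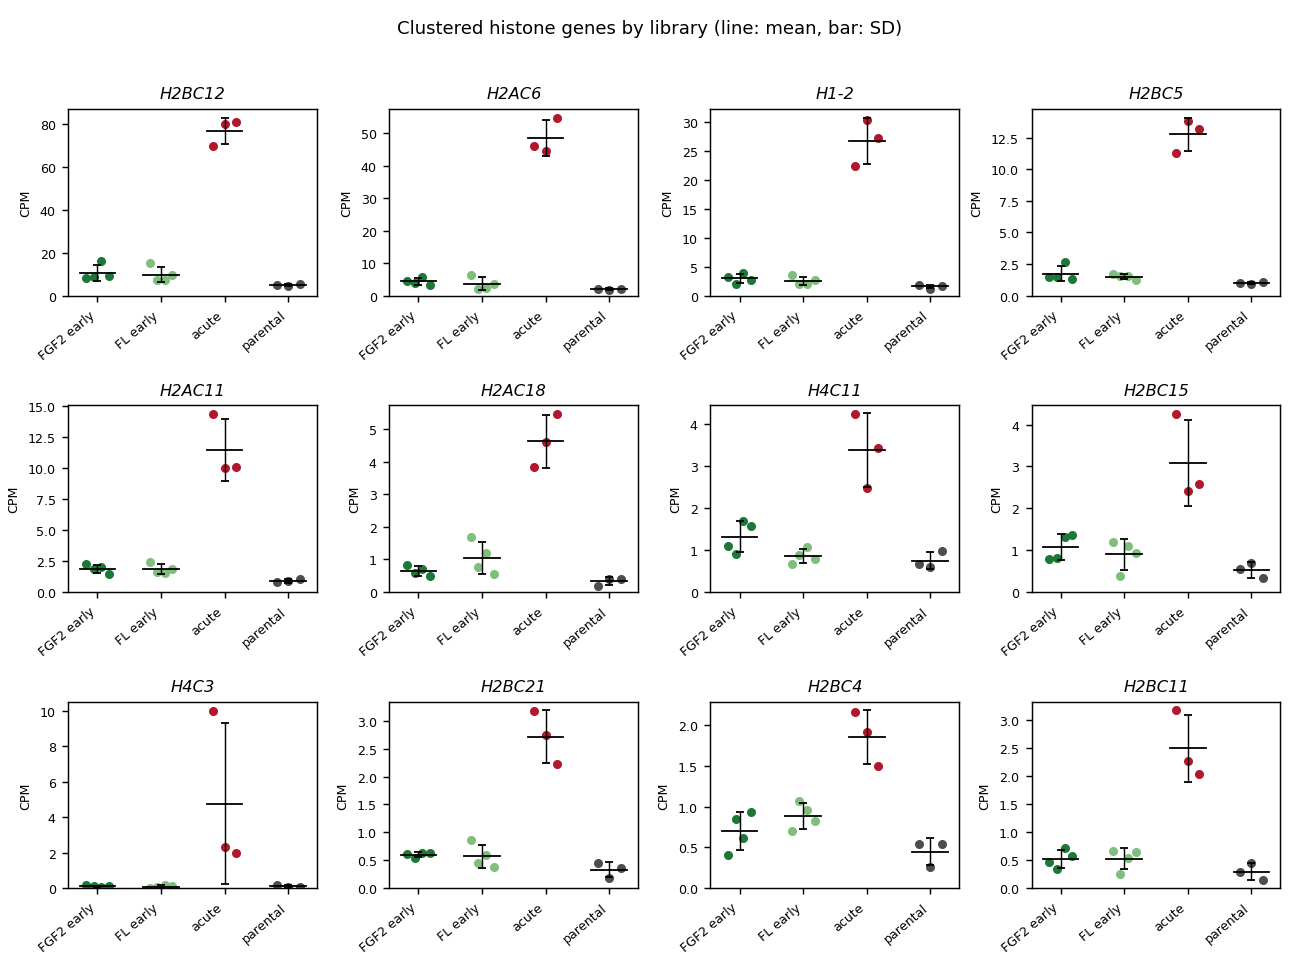
CPM (vertical axes, linear and set per gene) of the 12 clustered genes with the highest mean level that passed the test, in FGF2 early, FL early, acute and parental libraries, with lines for means and bars for SD. In each panel the 3 acute libraries lie above all others, as for H2BC12 at 69.8 to 80.7 CPM against 4.43 to 5.36 CPM in parental libraries.

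The largest fitted fold of a clustered gene belonged to H4C3, an H4 gene, which passed the filter only with the acute libraries. It had 0.145, 0.101, 0.0689 and 0.120 CPM in FGF2 early, 0, 0.0630, 0.166 and 0.103 CPM in FL early, 10.0, 2.3 and 1.96 CPM in acute, and 0.193, 0.0738 and 0.0719 CPM in parental libraries. The parental values are 6, 2 and 2 counts, and the acute values 305, 67 and 51 counts. Its log2 fold change was 5.32 ± 0.77 (adjusted p = 3.07e-05, edgeR), and 4.16 without acute replicate 1, the library with no ligand. Other clustered genes whose fold moved by more than 1.5 times without that library were H1-4 (4.17, and 3.30 without it), H1-5 (3.31 and 1.87), H2AC13 (3.58 and 2.57) and H3C4 (4.80 and 4.07). All 5 genes passed the filter only with the acute libraries, and the adjusted p of H1-5 without that library was 0.0484 (edgeR). Leaving out parental replicate 1 gave 4.42 for H2AC13, 5.94 for H4C3 and 3.35 for H2BC18 (2.66 with all libraries), and leaving out parental replicate 3 gave 5.22 for H3C12 (3.42 with all libraries) and 5.96 for H3C4. H2AC7 (2.60, adjusted p = 0.0278, edgeR) lost its call without any 1 of the parental replicates or without acute replicate 1 or 2 (0.0518 to 0.0919), and H4C16 (2.15, adjusted p = 0.0148, edgeR) lost it without parental replicate 1 or 2 or acute replicate 1 (0.0555 to 0.0659). With the acute library without ligand as the only acute library, the log2 fold change was 2.40 for H2AC25 (3.55 with all libraries) and 3.06 for H2AC7. That fit takes no spread from the acute arm. By DESeq2 with all libraries H2AC7 was at 2.63 and was not called (adjusted p = 0.0531).

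The ligand libraries of the acute arm were each a single library, so they are described with counting intervals and with no test. With H4C14 and H4C15 taken once, the highest acute level of 25 clustered genes was in the library with FGF2 for 3, in that with FL for 4 and in that without ligand for 18. H4C3 had 2.3 CPM (95% Poisson interval 1.78 to 2.92) with FGF2 and 1.96 (1.46 to 2.58) with FL, against 10.0 (8.91 to 11.2) without ligand. H1-5, a linker histone, had 0.481 CPM (0.263 to 0.807) with FGF2 and 0.654 (0.381 to 1.05) with FL, against 3.47 (2.84 to 4.20) without ligand. H1-2 ran the other way, at 30.4 CPM (28.5 to 32.5) with FGF2 and 27.2 (25.2 to 29.2) with FL, against 22.4 (20.7 to 24.1) without ligand. H2BC12 was at 79.8 CPM (76.6 to 83.1) with FGF2 and 80.7 (77.2 to 84.2) with FL, against 69.8 (66.9 to 72.8) without ligand. The level without ligand divided by the higher level with ligand was 5.31 for H1-5, 4.34 for H4C3 and 3.37 for H2AC13, and 0.866 for H2BC12, 0.844 for H2AC6, 0.815 for H2BC5, 0.735 for H1-2, 0.702 for H2AC18, 0.581 for H2AC20 and 0.334 for H2AC25. H2AC25 had 1.37 CPM (0.982 to 1.87) with FGF2 and 1.19 (0.81 to 1.69) with FL, against 0.459 (0.251 to 0.77) without ligand. H2AC19, which encodes the same protein as H2AC18, had 1.80 CPM (1.36 to 2.35) without ligand and 0 CPM with FGF2 and with FL. It is among the 18 genes highest without ligand. Reads may be split differently between these copies in each library, so the ratio of H2AC18 alone does not give the direction of the pair. The intervals cover counting error only.

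**Figure D3:**
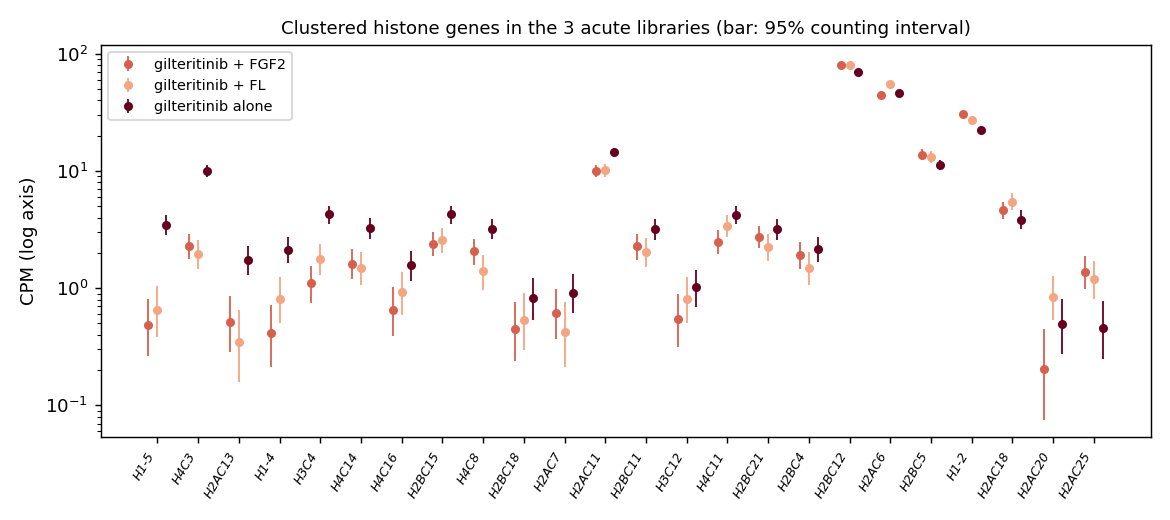
CPM (vertical axis, logarithmic) of clustered genes in the acute libraries with FGF2, with FL and with gilteritinib alone, with bars for 95% counting intervals, and genes ordered by the level without ligand over the higher level with ligand. H1-5 and H4C3 at the left are highest without ligand, 5.31 and 4.34 times, while H1-2 near the right is lower without it. H2AC18 is also drawn lower without ligand, but its copy H2AC19, at 0 CPM with FGF2 and with FL, is not drawn.

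Among the 8 variant genes tested, 2 were higher and 4 lower in acute than in parental cells. H1-10, a linker histone variant, had 37.6, 38.2, 35 and 31.4 CPM in FGF2 early, 75.0, 42.3, 43.4 and 49.2 CPM in FL early, 144.3, 150.0 and 171.6 CPM in acute, and 20.8, 21.4 and 31.7 CPM in parental libraries. Its acute level was 6.30-fold the parental one (2.66 ± 0.21, adjusted p = 1.01e-07, edgeR). H3-3B, one of the pair of genes for the replication-independent H3.3, had 353.8, 371.4, 387.4 and 373.6 CPM in FGF2 early, 349.1, 390.8, 405.7 and 391.8 CPM in FL early, 485.5, 507.0 and 482.8 CPM in acute, and 373.3, 374.2 and 400.0 CPM in parental libraries, a 1.29-fold difference between acute and parental cells (0.36 ± 0.07, adjusted p = 0.000287, edgeR).

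H2AZ1, which encodes a form of H2A.Z found at promoters, had 355.5, 390.3, 366.1 and 368.8 CPM in FGF2 early, 296.2, 347.0, 358.5 and 405.3 CPM in FL early, 42.3, 50.8 and 48.1 CPM in acute, and 485.9, 514.0 and 455.5 CPM in parental libraries. It fell to 0.097 times the parental level in acute cells (log2 fold change -3.37 ± 0.11, adjusted p = 1.29e-11, edgeR), the largest decrease among the 34 histone genes tested. H2AX, whose product is phosphorylated at DNA breaks, had 56.0, 53.2, 39.4 and 43.1 CPM in FGF2 early, 74.0, 53.2, 58.0 and 63.1 CPM in FL early, 12.1, 17.4 and 23.1 CPM in acute, and 36.1, 34.3 and 49.9 CPM in parental libraries. It was lower in acute than in parental cells with a log2 fold change of -1.20 ± 0.22 (adjusted p = 0.000278, edgeR). H2AX is the variant with the closest stem-loop match, with 1 mismatch, and in the acute arm it was lower where 24 clustered genes were higher.

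H2AZ2, the second H2A.Z gene, was at 73.2 to 77.8 CPM in acute and 137.0 to 143.1 CPM in parental libraries (-0.90 ± 0.06, adjusted p = 9.58e-09, edgeR). H3-3A, the other H3.3 gene, was at 130.1 to 145.5 CPM in acute and 212.7 to 246.1 CPM in parental libraries (-0.72 ± 0.10, adjusted p = 1.45e-05, edgeR). The paired genes for H3.3 thus moved apart, with H3-3A lower and H3-3B higher, under each of the scalings tried. MACROH2A1, which encodes macroH2A, had 544.7, 507.2 and 558.6 CPM in acute and 472.1, 481.4 and 473.1 CPM in parental libraries and was not called (0.0369 with library totals alone as scaling, edgeR), although the libraries did not overlap. H2AJ, an H2A variant gene, had 1.57 to 3.73 CPM in acute and 1.03 to 2.59 CPM in parental libraries and was not called.

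**Figure D4:**
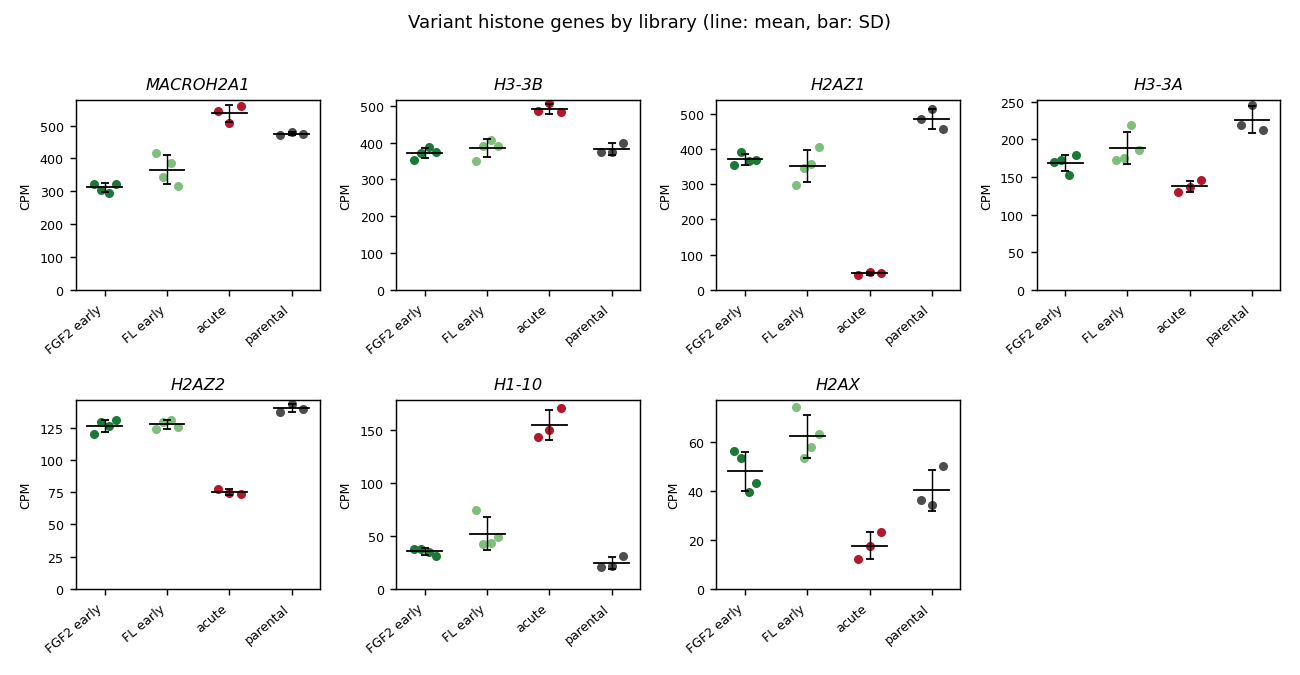
CPM (vertical axes, linear and set per gene) of the 7 variant genes that passed the test in acute against parental or early against acute cells, in FGF2 early, FL early, acute and parental libraries, with lines for means and bars for SD. H1-10 is at 144.3 to 171.6 CPM and H2AZ1 at 42.3 to 50.8 CPM in acute libraries, against 20.8 to 31.7 and 455.5 to 514.0 CPM in parental libraries.

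Early cells were then compared with acute cells, and held less of the clustered transcripts and of H1-10, and more of the H2A.Z, H2AX and H3-3A transcripts. Of the 26 clustered genes 0 were higher and 24 lower in early than in acute cells, against 32.1% higher and 33.9% lower of all genes tested. Of the 14 that passed the filter without the acute libraries, 13 were lower, with a median log2 fold change of -2.38, against -0.04 over all genes tested. H2AC6 fell to 0.0819 times the acute level (-3.61 ± 0.25, adjusted p = 1.88e-08, edgeR), H1-2 to 0.104 times (-3.26 ± 0.19, adjusted p = 2.69e-09), H2BC5 to 0.127 times (-2.98 ± 0.18, adjusted p = 4.6e-09) and H2BC12 to 0.132 times (-2.92 ± 0.21, adjusted p = 2.64e-08). Without acute replicate 1 the log2 fold changes of H1-4, H1-5, H3C4 and H4C3 were -1.94, -1.57, -2.58 and -4.41, in place of -2.82, -3.01, -3.31 and -5.57, and H2AC13 lost its call (-2.37, and -1.36 with an adjusted p of 0.0825, edgeR). Without FGF2 early replicate 2 H2AC7 was at -4.15 in place of -2.92, and without FL early replicate 3 H1-4 was at -3.44. H4C16 (-1.31, adjusted p = 0.0362, edgeR) lost its call without any 1 of replicates 1 and 2 of FGF2 early, 2 and 4 of FL early, and 1 and 3 of the acute arm (0.0527 to 0.225). Since these comparisons share the acute libraries with the one above, the opposite signs are not separate evidence.

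Among variants, H2AX, H2AZ1, H2AZ2 and H3-3A were higher and H1-10, H3-3B and MACROH2A1 lower in early than in acute cells. H2AZ1 was 7.67-fold higher (2.94 ± 0.10, adjusted p = 1.72e-11, edgeR) and H2AX 3.12-fold higher (1.64 ± 0.20, adjusted p = 4.6e-06). H1-10 fell to 0.278 times the acute level (-1.85 ± 0.15, adjusted p = 1.26e-07). MACROH2A1 had 323.3, 304.9, 295.7 and 322.6 CPM in FGF2 early and 416.3, 344.6, 385.1 and 316.0 CPM in FL early libraries, below the acute libraries in all 8 cases (-0.67 ± 0.07, adjusted p = 1.3e-06, edgeR).

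Against parental cells, early cells differed modestly, and some clustered genes were higher while several variants were lower. Of the 26 clustered genes 6 were higher and 0 lower, and of the 8 variants 1 was higher and 4 lower, against 13.7% higher and 16.1% lower of all genes tested. The clustered genes were H2AC18 (2.46-fold, 1.30 ± 0.38, adjusted p = 0.0189, edgeR), H2BC12 (2.09-fold, 1.07 ± 0.25, adjusted p = 0.00697), H2AC11 (2.07-fold, 1.05 ± 0.22, adjusted p = 0.00312), H2AC6 (2.04-fold, adjusted p = 0.0246), H1-2 (1.74-fold, adjusted p = 0.0189) and H2BC5 (1.61-fold, adjusted p = 0.0299). All 6 belong to the 14 that passed the filter without the acute libraries, whose median was 0.82, against 0.01 over all genes tested. The parental libraries carried several of these calls. Without parental replicate 1 or without parental replicate 2, 4 histone genes in all were higher in place of 7. H2AC6 and H2BC5 lost their calls without any 1 parental replicate (adjusted p 0.0572 to 0.129, edgeR), H1-2 without parental replicate 2 (0.113) and H2AC18 without parental replicate 1 (0.108). H2BC12 and H2AC11 kept theirs in each case. With the counts of copies added before the fit, H2AC18 with H2AC19 was at 1.16 (adjusted p = 0.0179, edgeR), below the 1.30 of H2AC18 alone. H2AC11 with H2AC13 was at 1.07 (adjusted p = 0.00274, edgeR).

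Of the variants, H1-10 was 1.75-fold higher in early than in parental cells (0.81 ± 0.18, adjusted p = 0.0042, edgeR). MACROH2A1 (-0.49 ± 0.07, adjusted p = 0.000283), H2AZ1 (-0.43 ± 0.08, adjusted p = 0.00176), H3-3A (-0.34 ± 0.08, adjusted p = 0.00482) and H2AZ2 (-0.14 ± 0.05, adjusted p = 0.0349) were lower. In H2AZ1 and MACROH2A1 every early library was below every parental one, while in H3-3A FL early replicate 3 at 218.7 CPM exceeded parental replicate 3 at 212.7 CPM. H2AZ2 had 120.0 to 130.9 CPM in early and 137.0 to 143.1 CPM in parental libraries. Its small decrease lost its call without any 1 of replicates 1, 2 and 3 of FGF2 early, replicate 1 of FL early and the parental replicates (adjusted p 0.0553 to 0.15, edgeR), and also with library totals alone as scaling (0.223).

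**Figure D5:**
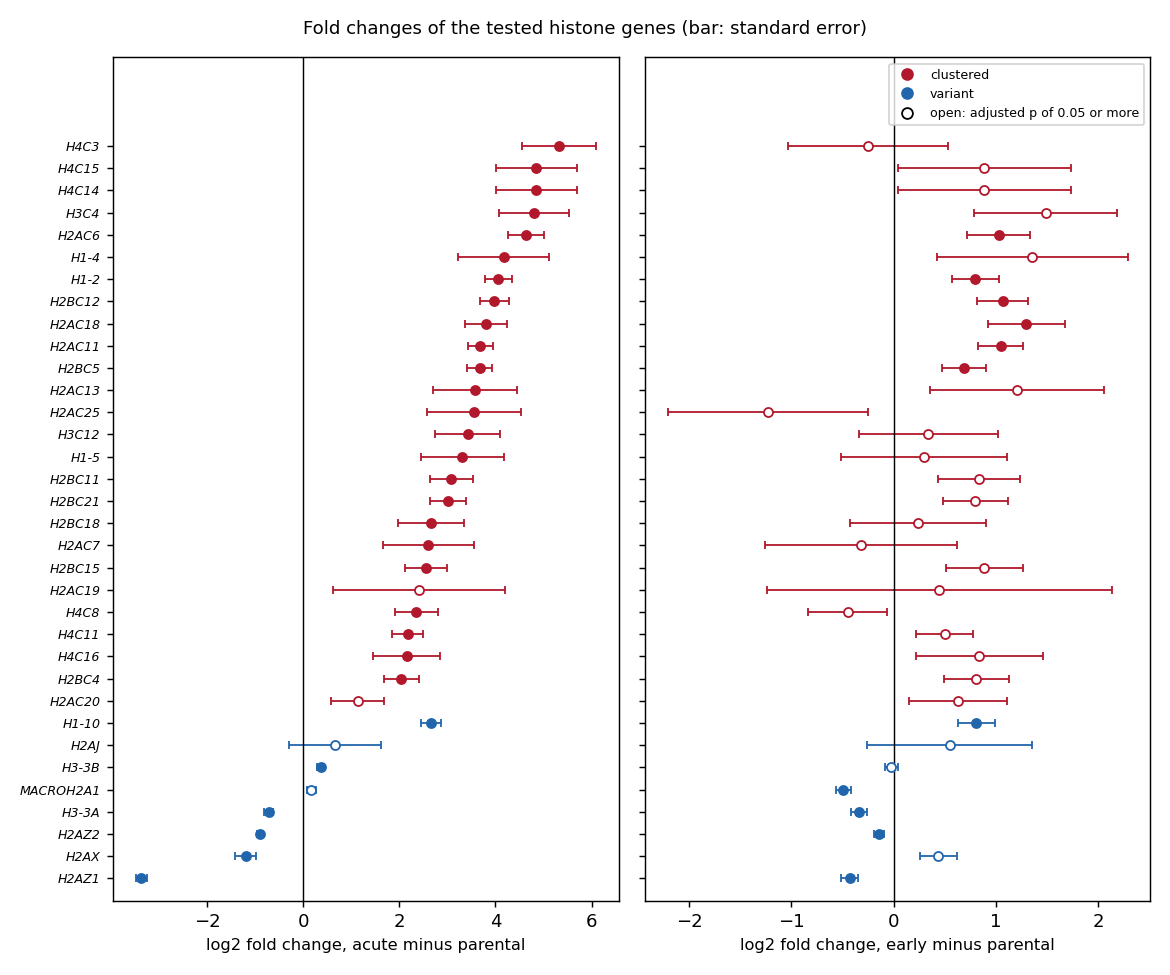
Log2 fold change (horizontal axes) with standard error of the 34 tested histone genes, acute minus parental at the left and early minus parental at the right, clustered genes above and variant genes below, with open points for an adjusted p of 0.05 or more. Clustered genes run from 1.13 to 5.32 at the left and from -1.23 to 1.49 at the right, and H4C14 and H4C15 are 1 measurement drawn in 2 rows.

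Each early line was also set against parental cells. In FGF2 early cells 5 clustered genes were higher (H2AC6, H2BC12, H2AC11, H1-2 and H2BC5) and 4 variants lower (MACROH2A1, H3-3A, H2AZ1 and H2AZ2) by edgeR, against 13.3% higher and 17.1% lower of all genes tested. No clustered gene was lower and no variant higher by edgeR or limma-voom, with 1 of each at an unadjusted p under 0.05 by edgeR. DESeq2 called H2AC25 lower (-3.84, adjusted p = 0.0344) and H1-10 higher (0.51, adjusted p = 0.0269). H2AC6 was 2.25-fold (1.17 ± 0.34, adjusted p = 0.0194, edgeR), H2BC12 2.17-fold (1.12 ± 0.28, adjusted p = 0.00809) and H2AC11 2.08-fold higher (1.06 ± 0.24, adjusted p = 0.00463). FGF2 early replicate 3 was the highest library of its arm for H2BC12, H2AC6, H1-2 and H2BC5. Without it H2AC6 and H2BC5 lost their calls (0.0535 and 0.0541, edgeR) and 3 histone genes were higher. The number higher was also 3 without parental replicate 1, 2 without parental replicate 2, and 8 without parental replicate 3. H1-2 lost its call without parental replicate 2 (0.0825). MACROH2A1 was lower with a log2 fold change of -0.61 ± 0.08 (adjusted p = 0.000162, edgeR), and H2AZ2 at -0.15 ± 0.05 (adjusted p = 0.0491) lost its call without any of 13 single libraries (0.0523 to 0.173).

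In FL early cells 3 clustered genes (H2AC18, H2AC11 and H2BC12) and 2 variants (H1-10 and H2AX) were higher than in parental cells and 3 variants (H2AZ1, MACROH2A1 and H3-3A) lower, against 10.9% higher and 9.76% lower of all genes tested. H2AC18 was 3.13-fold (1.65 ± 0.41, adjusted p = 0.0124, edgeR), H1-10 2.13-fold (1.09 ± 0.20, adjusted p = 0.00217) and H2AX 1.55-fold higher (0.63 ± 0.20, adjusted p = 0.0406). With the counts of copies added before the fit, H2AC18 with H2AC19 was at 1.39 (adjusted p = 0.0161, edgeR), below the 1.65 of H2AC18 alone. H2AC11 with H2AC13 was at 1.09, against 1.05 for H2AC11 alone. The number of histone genes higher was 2 without parental replicate 1 and 3 without parental replicate 2, in place of 5. H2BC12 lost its call without either of those replicates (0.0753 and 0.0869), and H2AC18 lost its call without parental replicate 1 (0.0681). H2AX lost its call without any 1 of replicate 4 of FGF2 early, 1, 3 and 4 of FL early, and 1 and 2 of the parental arm (0.0507 to 0.168). H3-3A (-0.27 ± 0.09, adjusted p = 0.0475, edgeR) lost its call without any of 11 single libraries, among them each parental replicate (0.0534 to 0.215). FL early replicate 1 was the highest library of its arm for H1-10 at 75.0 CPM, H2AX at 74.0 CPM and H2BC12 at 15 CPM. Without FL early replicates 1 and 4, H2BC12, H2AX and H3-3A lost their calls in this comparison (0.132, 0.18 and 0.232, edgeR).

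The early lines were compared with each other directly. In FGF2 early against FL early cells 0 histone genes were higher and 2 lower, against 4.0% higher and 9.56% lower of all genes tested. At an unadjusted p under 0.05 by edgeR 2 were higher, and after adjustment 0 were higher by DESeq2 and 2 by limma-voom. The 2 called by limma-voom with all libraries were H2AJ (3.72, adjusted p = 0.0258) and H4C16 (2.07, adjusted p = 0.0332). H1-10 was lower by -0.56 ± 0.18 with an adjusted p of 0.049, and lost its call without any of 10 single libraries (0.0537 to 0.128, edgeR), with -0.34 without FL early replicate 1 and -0.27 (0.232) without FL early replicates 1 and 4. MACROH2A1 was also lower without FL early replicate 4 (-0.29, adjusted p = 0.00911). H2AC25, an H2A gene on chromosome 1, had 0 CPM in all 4 FGF2 early libraries and 0.260, 0.347, 0.665 and 0 CPM in FL early libraries. Its FL early mean of 0.318 CPM was 13.4 times the limit of 3 counts over the FGF2 early arm (0.0237 CPM), and 8.52 times without FL early replicate 3. The adjusted p was 0.0166 with all libraries by edgeR and 0.0649 by limma-voom. These ratios leave out the spread of the FL early libraries (SD 0.274 CPM, with replicate 4 also at 0), so they do not bound the difference. H2AC25 passed the filter only with the acute libraries. It fell below the filter, and so was not tested, where only these arms were fitted or the acute libraries were left out for the replicate block. Both arms are near the limit of detection for this gene. H2AJ had 5.09, 5.54, 4.06 and 3.12 CPM in FGF2 early and 1.49, 0.126, 0 and 3.93 CPM in FL early libraries and was not called (1.69 ± 0.83, adjusted p = 0.207, edgeR). H4C16 had 0.552, 0.743, 0.758 and 0.749 CPM in FGF2 early and 0.706, 0.0945, 0.0332 and 0.205 CPM in FL early libraries. FL early replicates 2 and 3 were lowest for both genes, and replicates 1 and 4 carried most of the arm's level. The number of genes higher in FGF2 early cells was 1 without FL early replicate 4, namely H2AJ (3.09, adjusted p = 0.0153), and 1 without FL early replicate 1, namely H4C16 (2.62, adjusted p = 0.00559). Without both replicates it was 3, with H2AC6 (0.98, adjusted p = 0.00892) as the third, and these genes were singled out after their values were seen.

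Genes that make, process and handle histone transcripts and proteins were mostly lower in acute than in parental cells, where 32.3% of all genes tested were higher and 30.3% lower. All 31 of 31 replication and S phase genes were lower in acute than in parental cells, with a median log2 fold change of -2.91, and their summed level was 4721 to 4976 CPM in FGF2 early, 4157 to 4796 in FL early, 783.5 to 904.5 in acute and 5357 to 5469 in parental libraries. Among them CDC6, which loads the replicative helicase, had 1.77 ± 0.393 CPM in acute and 84.5 ± 5.53 in parental cells (SD, n = 3 each), and MCM4, a helicase subunit, had 36.9 ± 2.5 and 759.6 ± 36.2 CPM. Of 17 tested genes of histone mRNA 3' processing 2 were higher and 14 lower, with a median of -1.23. SLBP, which binds the stem-loop and is in both of these lists, had 73.4 ± 1.91 CPM in FGF2 early (n = 4), 81.2 ± 5.66 in FL early (n = 4), 33.4 ± 2.09 in acute (n = 3) and 101.9 ± 2.36 in parental cells (SD, n = 3), a log2 fold change of -1.61 ± 0.07 between acute and parental cells (adjusted p = 2.9e-10, edgeR). SNRPE, a shared Sm protein of the small nuclear RNPs, was lower by -2.24 ± 0.10 (adjusted p = 2.5e-10). These levels moved with the arms as the clustered genes did, in the opposite direction, and their part in the histone results was not tested.

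Of 9 tested regulators of histone gene transcription 1 was higher and 8 lower in acute than in parental cells (median -1.26). This list shares CDK2, CCNE1, CCNE2 and E2F1 with the replication list, and NPAT and CASP8AP2 with the 3' processing list. Its counts are therefore not separate from theirs. The cyclins CCNE1 and CCNE2, which activate CDK2, were at 0.756 ± 0.182 and 0.753 ± 0.386 CPM in acute cells and at 17.3 ± 0.697 and 32.9 ± 3.42 CPM in parental cells (SD, n = 3 each). Of 25 histone chaperone and exchange genes 3 were higher and 18 lower (median -1.13), among them ASF1B, an H3-H4 chaperone of replicating cells (-3.96 ± 0.08, adjusted p = 8.35e-13, edgeR), and CHAF1A, a subunit of the chromatin assembly factor CAF-1 (-2.45 ± 0.09, adjusted p = 3.37e-11). The poly(A) machinery, which adds tails to ordinary mRNAs, had 2 of 15 genes higher and 10 lower (median -0.50), with the poly(A) polymerase PAPOLA at 142.4 ± 1.02 CPM in acute and 242.0 ± 9.46 CPM in parental cells (SD, n = 3 each). CENPA, the centromeric H3 variant, whose symbol lies outside those chosen, was at 1.70 ± 0.0872 CPM in acute and 23.0 ± 1.73 CPM in parental cells (-3.75 ± 0.12, adjusted p = 1.36e-11, edgeR). The median over all genes tested in this comparison was 0.07.

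In early against parental cells these lists differed less, and over all genes tested 13.7% were higher and 16.1% lower. Of the replication genes 1 was higher and 16 were lower (median -0.28), of the 3' processing genes 1 was higher and 6 were lower (median -0.19), and of the chaperones 3 were higher and 8 lower (median -0.10). SLBP was lower by -0.40 ± 0.06 (adjusted p = 0.00028, edgeR), and ANP32E, which removes H2A.Z from nucleosomes, by -0.85 ± 0.10 (adjusted p = 4.41e-05). Of the transcription regulators 1 was higher and 1 lower, and of the poly(A) machinery 3 of 15 were higher.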

How the data were processed

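RNA-seq of 14 MOLM14 libraries was analysed. Stranded poly(A) libraries (TruSeq) were sequenced on a NovaSeq instrument, per the labels' protocols. Values are the authors' estimated counts, 1 per Ensembl gene, from kallisto on GRCh37, per the submitters' processing notes. The kallisto version and the summing of transcripts to genes are not given in the sources used here. Counts were rounded, which gave totals of 25723555 to 33075122, filtered (filterByExpr, minimum count 10, minimum total 15) and fitted over 4 arms by robust quasi-likelihood with TMM scaling (edgeR 4.0.16, R 4.3.3), with Benjamini-Hochberg adjustment over 15756 genes and a two-sided threshold of 0.05. CPM uses TMM library sizes, and fold changes are log2 ± SE. The procedure was also run on simulated data with 1 spread for all genes. That run does not show how it performs at the low counts of most clustered genes. Alternatives used DESeq2 1.42.0, limma 3.58.1, other scalings, filters, sample sets and left-out libraries.

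Current symbols were matched to 85.2% of identifiers. Of 109 symbols that the rule takes in, 34 were not matched in the table and are not analysed here, and 1 matched gene is not reported here. GENCODE 29 and RefSeq, on GRCh38, served for names, transcripts and promoters only. Clustered genes are H1-1 to H1-6, H2AC, H2BC, H3C and H4C. Variants are the others. The genes printed library by library are those called in acute against parental or early against acute cells, highest mean CPM first, up to 12 of a class. Of each list, up to 4 genes with the smallest adjusted p in the comparison described were named. The members, lists and alternatives were chosen with earlier results of these data known. The count of 0 limit is 3 counts, and intervals are 95% exact Poisson intervals that cover counting error only.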

Additional observations from a re-analysis of the deposited data

Results flagged for a closer look

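In FGF2 early cells, replicate 3 stood far above the other libraries of its arm for H2BC12, at 16.3 CPM, and for H2BC5, at 2.65 CPM. The gap to the next library was 0.86 of the arm's whole range for H2BC12 and 0.875 for H2BC5, above Dixon's 95% critical value for 4 libraries. Both are clustered H2B genes, and 38 such groups of libraries were examined, of which chance would pick about 1 in 20. Without this replicate the log2 fold change of FGF2 early against parental cells was 0.83 for H2BC12 (adjusted p = 0.0187, edgeR) and 0.54 for H2BC5 (adjusted p = 0.0541), against 1.12 and 0.80 with it.

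The early lines differed directly in 2 histone genes, both lower in FGF2 early than in FL early cells by edgeR. This is 2 of 34 tested, against 9.56% lower of all genes tested. The linker variant H1-10 (log2 fold change -0.56, adjusted p = 0.049) had its highest early level in FL early replicate 1. H2AC25 had a fitted value of -6.27 (adjusted p = 0.0166) with all 4 FGF2 early libraries at 0. This value depends on the prior count, so it bounds nothing. It was -5.62 without FL early replicate 3.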

How the results depend on the processing

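No called histone gene changed direction under the alternatives run. Leaving aside the 2-fold rule, calls held under every alternative in which the gene was tested for 27 of 30 genes in acute against parental, 29 of 31 in early against acute, 6 of 11 in early against parental, 5 of 9 in FGF2 early against parental, 4 of 8 in FL early against parental and 0 of 2 in FGF2 early against FL early cells. Asking for a 2-fold change as well left 2663 genes higher and 2205 lower in acute against parental cells (2 histone genes lower), 1888 and 2526 in early against acute (2 histone genes higher), 389 and 683 in early against parental (4 histone genes higher, 0 lower), 408 and 972 in FGF2 early against parental (3 higher, 0 lower), 486 and 338 in FL early against parental (0 lower), and 73 and 744 in FGF2 early against FL early (1 lower). This follows from the stricter rule. For the other changes in this paragraph the cause was not tested. With limma-voom 4 histone genes were higher in early against parental cells, and 2 were higher and 0 lower in FGF2 early against FL early. With only the arms compared, 3193 genes and 9 histone genes were higher in FGF2 early against parental, and 0 histone genes were lower in FGF2 early against FL early, where H2AC25 was below the filter. That number was 1 with library totals alone, with a scaling without ribosomal protein and mitochondrial genes and with no filter on low counts, since H1-10 lost its call (adjusted p 0.0532 to 0.0818, edgeR). Without FL early replicates 1 and 4, chosen after seeing the data, 9 histone genes were higher in FGF2 early against parental, and 1299 genes and 3 histone genes in FGF2 early against FL early. With library totals alone 1002 genes, and with DESeq2 995 genes, were higher in FGF2 early against FL early, and the variant sum averaged 1471 CPM in FGF2 early and 1724 CPM in parental cells. With no filter on low counts H3C13 (4.38, adjusted p = 0.00327), H3C14 with H3C15 (2.24, adjusted p = 0.0329) and the pseudogene H2BC19P (2.52, adjusted p = 0.0225) were also higher in acute cells by edgeR.

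Leaving out 1 library at a time gave these ranges of genes called: in acute against parental cells 4584 to 5231 higher and 4473 to 5022 lower (histone genes 24 to 28 and 4 to 4), in early against acute 4698 to 5413 and 4898 to 5375 (4 to 4 and 25 to 29), in early against parental 1136 to 2393 and 1549 to 2944 (4 to 8 and 3 to 4), in FGF2 early against parental 1320 to 2435 and 1963 to 3074 (2 to 8 and 3 to 4), in FL early against parental 795 to 1963 and 717 to 1980 (2 to 7 and 2 to 3), and in FGF2 early against FL early 303 to 1214 and 1042 to 2060 (0 to 1 and 1 to 3). The clustered sum averaged 25.9 to 30.8 CPM in FGF2 early, 23.9 to 30.1 in FL early, 214.1 to 221.9 in acute and 14.4 to 16 in parental cells.

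Replicate numbers do not pair the libraries, since the correlations of same-numbered libraries ran from -0.09 to 0.07. A fit with the replicate number as a block left 0 histone genes lower in FGF2 early against FL early cells, with H2AC25 below its filter, and 669 genes higher and 1279 lower in all, and ended the calls of H1-10 there (-0.54), of H2AZ2 in early and in FGF2 early against parental cells, and of H3-3A and H2BC12 in FL early against parental cells.

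Of the 26 clustered genes tested, 19 had a median under 20 counts over the early and parental libraries, which limits what could be detected between those arms.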
